A study of Mus musculus with 12 samples.

Results

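The Hox cluster genes of mouse embryonic fibroblasts were taken as all lines of the deposited count table whose symbol is Hox, a cluster letter from a to d and a number. The rule took 39 of 47517 lines, without regard to their values: 11 HoxA genes, 10 HoxB genes, 9 HoxC genes and 9 HoxD genes. A gene was tested when it had enough counts for its group size under the filter of the edgeR package, and 18 of the 39 passed. These were all 11 HoxA genes and 7 of the 9 HoxD genes (Hoxd4 and Hoxd8 to Hoxd13). No HoxB and no HoxC gene passed.

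Hox genes code for homeodomain transcription factors, proteins that bind DNA and set the identity of a body region during development. In the mouse they sit in clusters on separate chromosomes, and the order of the genes along a cluster follows the order in which they are used along the body: low-numbered genes act towards the head, and the highest-numbered genes act at the tail end and in the outer part of the limb. Genes with the same number in different clusters are paralogues, copies of a common ancestor with similar DNA-binding domains. Polycomb proteins hold unused Hox genes silent and Trithorax proteins keep used ones active, and fibroblasts in culture are known to keep part of the Hox pattern of the place they were taken from.

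RNA was sequenced after removal of ribosomal RNA in 12 libraries of C57BL/6 mouse embryonic fibroblasts (MEFs), taken at E13.5 and immortalised with the SV40 large T antigen. The study asked how RNA changes when Ssb1 (gene symbol Nabp2) and Ssb2 (Nabp1), whose proteins bind single-stranded DNA, are lost. All cells carried floxed alleles of both genes (Flox/Flox in the protocol, with Ssb1 spelled Fl/F in the genotype label of the Cre-positive cells). The Cre-positive line, "Cre +ve" in the genotype label, also carried RosaCreERT2, a recombinase made from a widely active locus and switched on by 4-hydroxytamoxifen (4-OHT). The Cre-negative line, "Cre -ve", did not. Each line was given 4-OHT for 5 days, given ethanol (the vehicle) for 5 days, or left untreated, with 2 libraries in each of the 6 groups. Cre-positive cells with 4-OHT are libraries 11 and 12, with ethanol libraries 3 and 4, and untreated libraries 7 and 8. Cre-negative cells with 4-OHT are libraries 5 and 6, with ethanol libraries 9 and 10, and untreated libraries 1 and 2. The labels do not say how many embryos, cultures or clones stand behind each line or group. The p-values therefore rest on how far the 2 libraries of a group vary, a spread that may be technical, and an effect of the Cre transgene cannot be told apart from any other difference between the lines.

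Library totals ran from 20201855 to 36367012 counts, and the chi-square per degree of freedom between the libraries of a group was 2.37 to 4.60, above what sampling alone gives, so none was treated as a copy. The recombined genes checked the labels: Nabp1 was at 3.40 and 3.96 counts scaled to library size (CPM) in Cre-positive cells with 4-OHT, against 14.5 and 15.9 CPM with ethanol, and Nabp2 was at 4.84 and 5.09 CPM with 4-OHT, against 19.8 and 22.6 CPM with ethanol. Before any treatment both were already lower in Cre-positive than in Cre-negative cells, at log2 fold changes of -0.74 for Nabp1 and -0.32 for Nabp2. Of the 12 fibroblast markers, Vim, Col1a1, Col1a2, Col3a1, Pdgfra, Pdgfrb, Fn1, S100a4 and Fbln2 were at 108.7 CPM or above in every library, whereas Thy1, Dcn and Lum stayed at or below 0.882 CPM. The summed level of 7 haematopoietic markers was 2.80 to 4.58 CPM over all libraries, that of 7 epithelial markers 0.661 to 2.97 CPM, that of 5 endothelial markers 0.354 to 1.47 CPM and that of 6 skeletal muscle markers 0.905 to 1.98 CPM, with Myf5 at 0 everywhere. The 7 neural markers summed to 142 to 187 CPM, most of it Nes, Map2 and Sox2.

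The cells used the high-numbered ends of HoxA and HoxD and almost nothing of HoxB and HoxC. HoxD genes took 75494 of the 124245 Hox counts of the 12 libraries (60.8%) and HoxA genes 48569 (39.1%). The 9 HoxC genes had 100 counts in all (0.0805%) and the 10 HoxB genes 82 (0.066%). Together the 39 genes took 0.038% of all counts.

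Among the HoxB genes, Hoxb6 had most counts, 34 over the 12 libraries, followed by Hoxb9 with 21 and Hoxb8 with 13, and the other members had 4 or fewer. Among the HoxC genes, Hoxc9 had 44 counts, Hoxc8 had 17 and Hoxc13 had 12, and the others had 9 or fewer. Hoxb7 and Hoxc10 had no count in any library, which allows a level of up to 0.00917 CPM over all libraries (3 counts of the summed total, counting error only). Hoxc8 had counts in all 6 Cre-positive libraries, at 0.0283 to 0.147 CPM, and in 1 Cre-negative library, at 0.0441 CPM. Such levels are 1 to 4 counts per library and were not tested. Hoxd1 and Hoxd3, the HoxD genes at the head end of the cluster that failed the filter, had 9 and 5 counts in all.

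Levels of different genes were compared per kilobase of exon, with all annotated exons of a gene joined. The ranks depend on that length, which was 5580 bases for Hoxa9, 2287 for Hoxa11 and 2472 for Hoxa13. In CPM, not divided by length, Hoxa9 (42.5 in untreated Cre-positive cells) stood above Hoxa11 (33.4) and Hoxa13 (25.0). The same order held in untreated Cre-negative cells (32.4, 27.7 and 16.2 CPM). Hoxd13, which patterns digits and the genital tubercle, stood first in every group, with 65.4 ± 1.93 CPM per kb in untreated Cre-positive cells and 63.2 ± 0.273 CPM per kb in untreated Cre-negative cells (SD, n = 2 libraries each, as for all means below). The next gene was far lower in untreated cells of either line: Hoxa10 with 15.5 ± 0.813 CPM per kb in Cre-positive cells, and Hoxa11 with 12.1 ± 0.320 CPM per kb in Cre-negative cells. In Cre-positive untreated cells Hoxa10 and Hoxa11 (14.6 ± 0.801 CPM per kb) did not differ beyond their spread. Hoxa13 (10.1 ± 0.323 CPM per kb) and Hoxa9 (7.62 ± 0.196 CPM per kb) followed, then Hoxd11 and Hoxd10, which did not differ beyond their spread (4.76 ± 0.0282 and 4.65 ± 0.270 CPM per kb), and Hoxd8 (4.22 ± 0.250 CPM per kb). In Cre-negative untreated cells Hoxd8 came next after Hoxa11 (8.98 ± 0.216 CPM per kb), above Hoxa10 (8.38 ± 0.234 CPM per kb).

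Hoxa9, Hoxa10, Hoxa11 and Hoxa13 held 93.2% to 97.9% of the HoxA counts of a library. Hoxd13 alone held 73.4% to 80.8% of the HoxD counts. Low-numbered HoxA genes (up to Hoxa7) had a larger share of the cluster in Cre-positive cells: 4.77% ± 0.189 with 4-OHT, 4.94% ± 0.271 with ethanol and 6.68% ± 0.184 untreated, against 2.19% ± 0.115, 2.87% ± 0.525 and 2.45% ± 0.510 in Cre-negative cells under the same treatments. In HoxD, Hoxd1 to Hoxd9, nearly all of it Hoxd8 and Hoxd9, held 7.02% ± 0.495 of the cluster in untreated Cre-positive cells and 14.7% ± 0.109 in untreated Cre-negative cells.

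**Figure D1:**
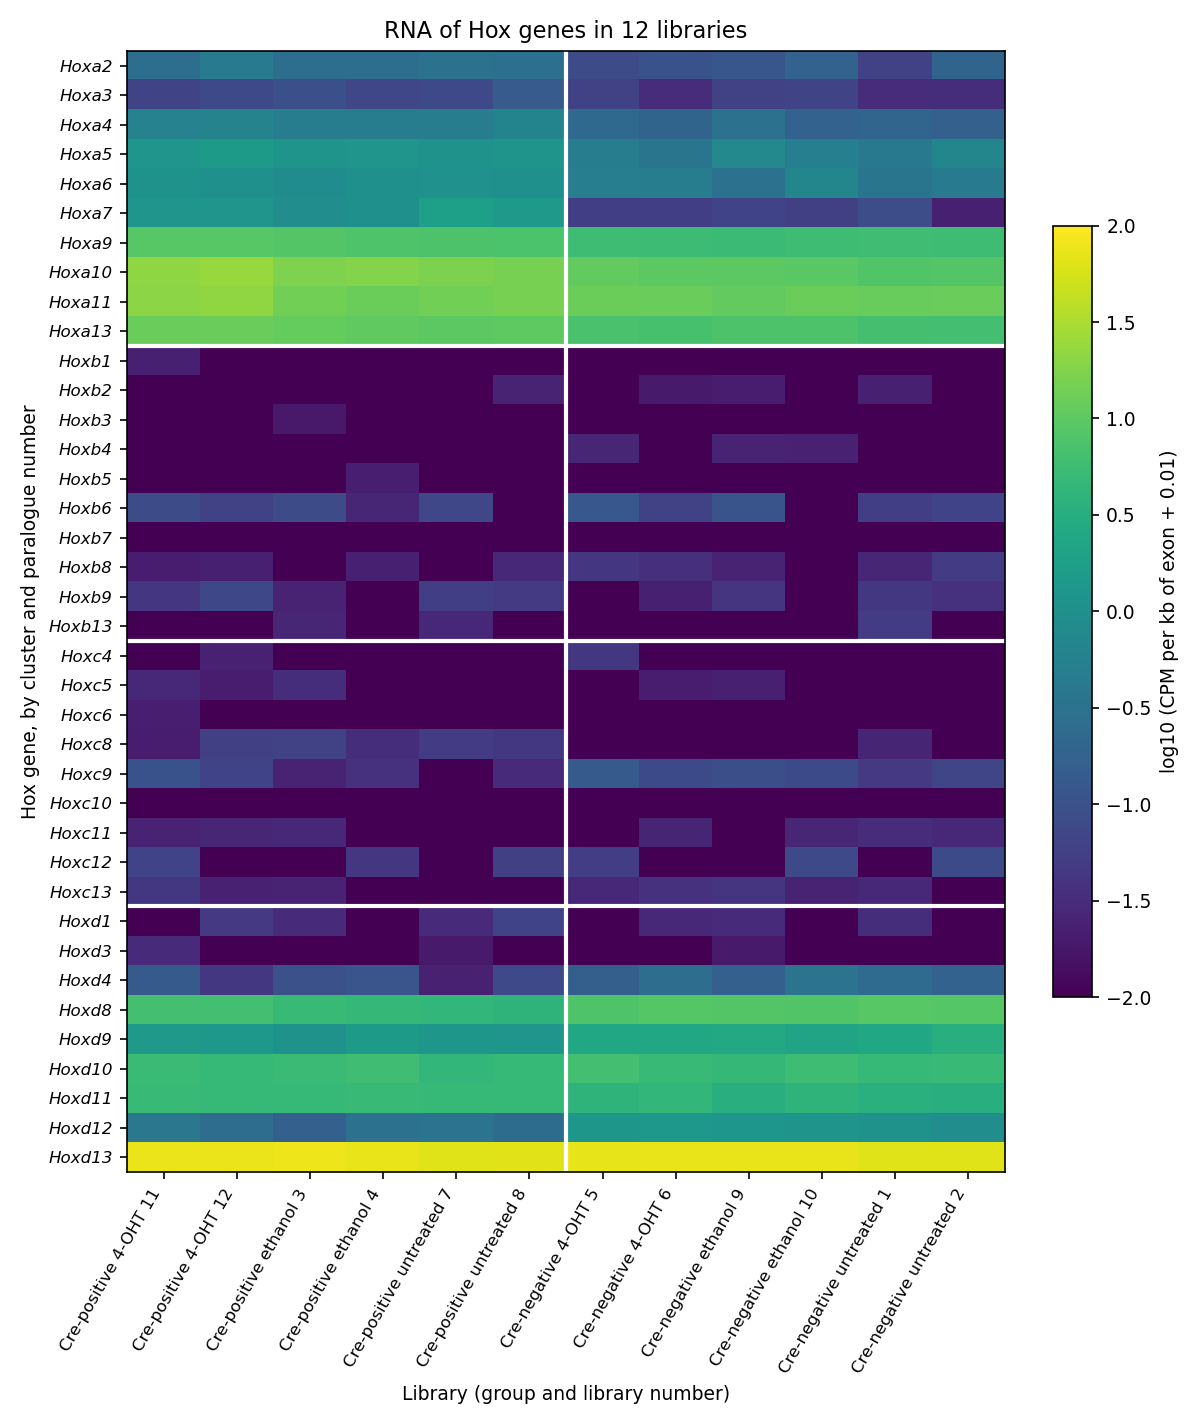
Level of 38 of the Hox genes (rows, by cluster and number) in each of the 12 libraries (columns, group and library number), as log10 of CPM per kb of exon plus 0.01. HoxB and HoxC rows are near the floor in every library, Hoxd13 is the brightest row, and Hoxa7 and Hoxd12 change colour at the white line between Cre-positive and Cre-negative libraries.

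The stretches of DNA before 5 of these genes are printed because they carry the results below: Hoxa7, Hoxd12 and Hoxd8 separate the lines under every alternative run, Hoxa11 and Hoxd8 do so in their response to 4-OHT, and Hoxd13 is the abundant gene that passed in neither comparison. Hoxa9, Hoxa10, Hoxa13 and Hoxd9 also separate the lines under every alternative run, and their stretches are not printed. Each is the 250 bases before the transcription start in RefSeq, GRCm38.p6, written 5′ to 3′ on the gene's own strand. RefSeq promoter windows matched 22 of the 39 genes (24 windows). Capitals mark CG dinucleotides, the sites at which mouse DNA is methylated. Hoxd13 is chr2:74667975-74668224 (plus strand), Hoxd12 chr2:74674763-74675012 (plus strand), Hoxd8 chr2:74704365-74704614 (plus strand), Hoxa7 chr6:52218574-52218823 (minus strand) and Hoxa11 chr6:52245811-52246060 (minus strand).
Hoxd13: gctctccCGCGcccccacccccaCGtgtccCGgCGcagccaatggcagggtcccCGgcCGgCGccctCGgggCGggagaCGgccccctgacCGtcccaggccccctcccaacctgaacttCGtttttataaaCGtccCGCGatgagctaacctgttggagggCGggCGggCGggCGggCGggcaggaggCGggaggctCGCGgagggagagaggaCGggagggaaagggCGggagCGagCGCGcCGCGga
Hoxd12: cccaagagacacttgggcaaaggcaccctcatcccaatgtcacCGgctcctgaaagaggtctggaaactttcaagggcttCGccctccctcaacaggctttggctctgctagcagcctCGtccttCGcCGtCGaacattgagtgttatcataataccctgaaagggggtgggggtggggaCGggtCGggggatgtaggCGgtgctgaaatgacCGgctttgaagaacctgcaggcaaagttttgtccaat
Hoxd8: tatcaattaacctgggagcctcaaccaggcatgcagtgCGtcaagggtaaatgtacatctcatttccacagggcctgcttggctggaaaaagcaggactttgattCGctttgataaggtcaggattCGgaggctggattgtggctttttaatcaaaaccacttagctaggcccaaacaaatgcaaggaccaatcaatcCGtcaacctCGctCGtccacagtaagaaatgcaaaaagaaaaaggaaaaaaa
Hoxa7: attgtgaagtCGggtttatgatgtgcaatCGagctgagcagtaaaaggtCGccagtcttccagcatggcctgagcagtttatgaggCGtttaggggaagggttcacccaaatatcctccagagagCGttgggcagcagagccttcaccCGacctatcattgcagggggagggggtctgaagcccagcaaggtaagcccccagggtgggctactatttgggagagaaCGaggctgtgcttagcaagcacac
Hoxa11: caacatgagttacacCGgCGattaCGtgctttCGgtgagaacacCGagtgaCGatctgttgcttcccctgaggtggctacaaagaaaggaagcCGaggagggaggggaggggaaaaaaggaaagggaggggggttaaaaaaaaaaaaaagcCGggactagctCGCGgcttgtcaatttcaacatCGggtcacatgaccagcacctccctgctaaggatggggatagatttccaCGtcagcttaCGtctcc

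The Hoxd13 stretch holds 31 CG dinucleotides, that of Hoxa11 13, that of Hoxd12 10, that of Hoxa7 7 and that of Hoxd8 6. The median was 12 over the 24 Hox windows and 6 over all 32851 windows of that length. Searched on both strands, the GC box GGGCGG occurs 7 times before Hoxd13 and in none of the other 4 stretches; 41.7% of Hox windows and 32.7% of all windows hold it. Hoxd13 also has a pair of TATAAA matches that overlap each other on opposite strands, against 16.7% of Hox windows and 12.4% of all windows with such a match. CCAAT occurs once before Hoxd13, in 2 places before Hoxd12 and once before Hoxd8 (58.3% of Hox windows and 33.8% of all windows). The only match to AGGTCA, a half-site of retinoic acid receptors and not their full motif, is before Hoxd8 (25.0% of Hox windows and 14.0% of all windows). None of the 5 holds TGATNNAT, bound by HOX and PBX together, or TGACAG, bound by MEIS proteins, which occur in 7.7% and 15.9% of all windows. These are matches of letters, and binding was not measured.

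The Cre-positive and Cre-negative lines differed in most of the Hox genes they used: nearly all HoxA genes were higher in Cre-positive cells, while HoxD genes were mixed. In untreated cells 15 of the 18 tested genes passed the test, 11 higher and 4 lower in Cre-positive cells, where 49.0% of all 17609 tested genes passed (24.4% higher, 24.6% lower). Of the 11 HoxA genes, 10 were higher in Cre-positive cells, with a median log2 fold change of 1.26 over the cluster, against 0.01 over all tested genes. Of the 7 tested HoxD genes, 4 were lower (Hoxd4, Hoxd8, Hoxd9 and Hoxd12) and Hoxd11 was higher, with a median of -1.08. Fold changes are Cre-positive over Cre-negative. Tests are edgeR quasi-likelihood tests with p-values adjusted over all tested genes by Benjamini and Hochberg, called at 0.05. In bulk RNA, fewer cells that use a gene and less RNA per cell cannot be told apart.

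Hoxa7, a gene of the trunk that in mouse takes part in setting vertebral identity, gave the widest separation. It was at 5.15 and 4.03 CPM in the untreated Cre-positive libraries 7 and 8, against 0.220 and 0.0358 CPM in the untreated Cre-negative libraries 1 and 2. Every Cre-positive library, at 2.58 CPM or above, was over every Cre-negative library. Summed over libraries, 213 counts stood against 6 in untreated cells, a ratio of 39.2 (exact 95% Poisson interval 17.7 to 108, counting error only). The ratio was 19.0 (9.39 to 44.7) with ethanol and 25.9 (12.4 to 65.2) with 4-OHT. The fitted log2 fold change in untreated cells was 5.23 (SE 0.346, adjusted p = 2.93e-11). With so few Cre-negative counts its size rested on single libraries: it was 6.85 without Cre-negative library 1 and 4.37 without library 2, and passed each time.

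Neighbours of Hoxa7 on chromosome 6 differed far less. Hoxa6, 5.8 kb away, had a log2 fold change of 1.32 (SE 0.390, adjusted p = 0.00758) in untreated cells, and Hoxa9, 1.2 kb away on the other side, of 0.39 (SE 0.0578, adjusted p = 6.64e-06). Hoxa7 shares 586 exonic bases (20.4% of its exon length) with Hoxaas3, an RNA of the opposite strand, which was at 1.14 and 1.08 CPM in untreated Cre-positive libraries, against 0.352 and 0.574 CPM in untreated Cre-negative ones. The sources used here do not give the strand setting of the authors' counting, so reads of such overlapping pairs may have been split between them.

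The other low-numbered HoxA genes, which act in the hindbrain, neck and upper trunk, were all scarce. Hoxa5, needed in mouse for lung and neck skeleton, was at 2.01 and 2.21 CPM in untreated Cre-positive libraries, against 0.749 and 1.29 CPM in untreated Cre-negative ones. Hoxa4 was at 0.787 and 0.983 CPM in Cre-positive cells, against 0.308 and 0.251 CPM in Cre-negative cells. The groups did not overlap for either gene. Hoxa3, Hoxa4, Hoxa5 and Hoxa6 passed with log2 fold changes of 1.00 to 2.01, whereas Hoxa2 did not (1.26, 95% interval 0.147 to 2.37, adjusted p = 0.0566). Hoxa3 rests on few counts and shares exons with 5 other annotated RNAs of the cluster; without Cre-positive library 8 it no longer passed (log2 fold change 1.48, adjusted p = 0.0953). Nor did Hoxa5 without Cre-negative library 1 (0.70, adjusted p = 0.0569).

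The abundant high-numbered HoxA genes differed less but more precisely. Hoxa10, which in mouse patterns the lumbar spine, the upper limb segment and the uterus, was at 52.5 and 48.8 CPM in untreated Cre-positive libraries, against 26.9 and 27.96 CPM in untreated Cre-negative libraries (log2 fold change 0.89, SE 0.0668, adjusted p = 2.75e-10). Hoxa13, the gene of the outer limb and the hindmost gut, was at 24.4 and 25.6 CPM in Cre-positive cells, against 16.6 and 15.7 CPM in Cre-negative cells (log2 fold change 0.63, SE 0.0742, adjusted p = 3.05e-07). Hoxa9 was at 43.3 and 41.7 CPM, against 32.6 and 32.3 CPM (log2 fold change 0.39, as above). All of these were separated without overlap. Hoxa11, a gene of the middle limb segment, was the closest, with 32.1 and 34.6 CPM in Cre-positive cells and 27.1 and 28.2 CPM in Cre-negative cells (log2 fold change 0.27, SE 0.0778, adjusted p = 0.00719); without Cre-positive library 8 it no longer passed (log2 fold change 0.21, adjusted p = 0.0779).

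In HoxD the difference skipped from gene to gene. Hoxd13 was at 159 and 166 CPM in untreated Cre-positive libraries, against 156 and 157 CPM in untreated Cre-negative libraries, a log2 fold change of 0.05 (95% interval -0.0391 to 0.137, adjusted p = 0.365). Hoxd12, whose gene lies 3.4 kb from Hoxd13 on chromosome 2, was at 0.826 and 0.639 CPM in Cre-positive cells, against 2.73 and 2.29 CPM in Cre-negative cells (log2 fold change -1.74, SE 0.267, adjusted p = 1.13e-05). Hoxd11, 1.9 kb further on, was at 19.98 and 20.15 CPM, against 14.4 and 14.2 CPM (log2 fold change 0.49, SE 0.0904, adjusted p = 0.000107). Hoxd11, Hoxd12 and Hoxd13 all act in the limb, and of these 3 adjacent genes 1 was higher, 1 was lower and 1 did not pass.

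Hoxd10 did not pass either, at 8.10 and 8.80 CPM in Cre-positive cells and 8.55 and 8.93 CPM in Cre-negative cells (log2 fold change -0.05, 95% interval -0.317 to 0.207). Hoxd9 was at 2.75 and 2.56 CPM in Cre-positive libraries, against 5.24 and 6.85 CPM in Cre-negative libraries (log2 fold change -1.19, SE 0.174, adjusted p = 5.64e-06). Hoxd8 was at 12.1 and 11.1 CPM, against 25.1 and 24.2 CPM (log2 fold change -1.08, SE 0.0812, adjusted p = 2.46e-10). Hoxd9 was 2.29-fold and Hoxd8 2.12-fold lower in Cre-positive cells, and the lines did not overlap. Hoxd4 was at 0.0393 and 0.197 CPM, against 0.705 and 0.502 CPM (log2 fold change -2.39, SE 0.711, adjusted p = 0.0079). Without Cre-positive library 7 it no longer passed (log2 fold change -1.57). Hoxd4 shares 1154 exonic bases with Gm28230, 388 with Hoxd3 and 347 with Hoxd3os1, an RNA of the opposite strand. Over all libraries Hoxd3os1 had 238 counts, against 140 for Hoxd4. Hoxd3os1 was at 0.157 and 0.442 CPM in untreated Cre-positive libraries, against 0.969 and 0.825 CPM in untreated Cre-negative ones. Reads of this pair may likewise have been split between them, and the part of Hoxd3os1 in the Hoxd4 difference was not tested.

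Of 5 pairs of paralogues set side by side, those numbered 4 and 9 were called in opposite directions. Hoxa9 was higher and Hoxd9 lower in Cre-positive cells, with 95% intervals of 0.272 to 0.513 and -1.56 to -0.833 on the log2 scale. Hoxa4 was higher (1.65, interval 0.802 to 2.49) and Hoxd4 lower (interval -3.87 to -0.913). Hoxa10 was higher (interval 0.747 to 1.02) while Hoxd10 lay around 0, and Hoxa13 was higher (interval 0.475 to 0.784) while Hoxd13 lay around 0. At number 11 both genes were higher, Hoxa11 by 0.27 and Hoxd11 by 0.49. The difference between paralogues was not itself tested.

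**Figure D2:**
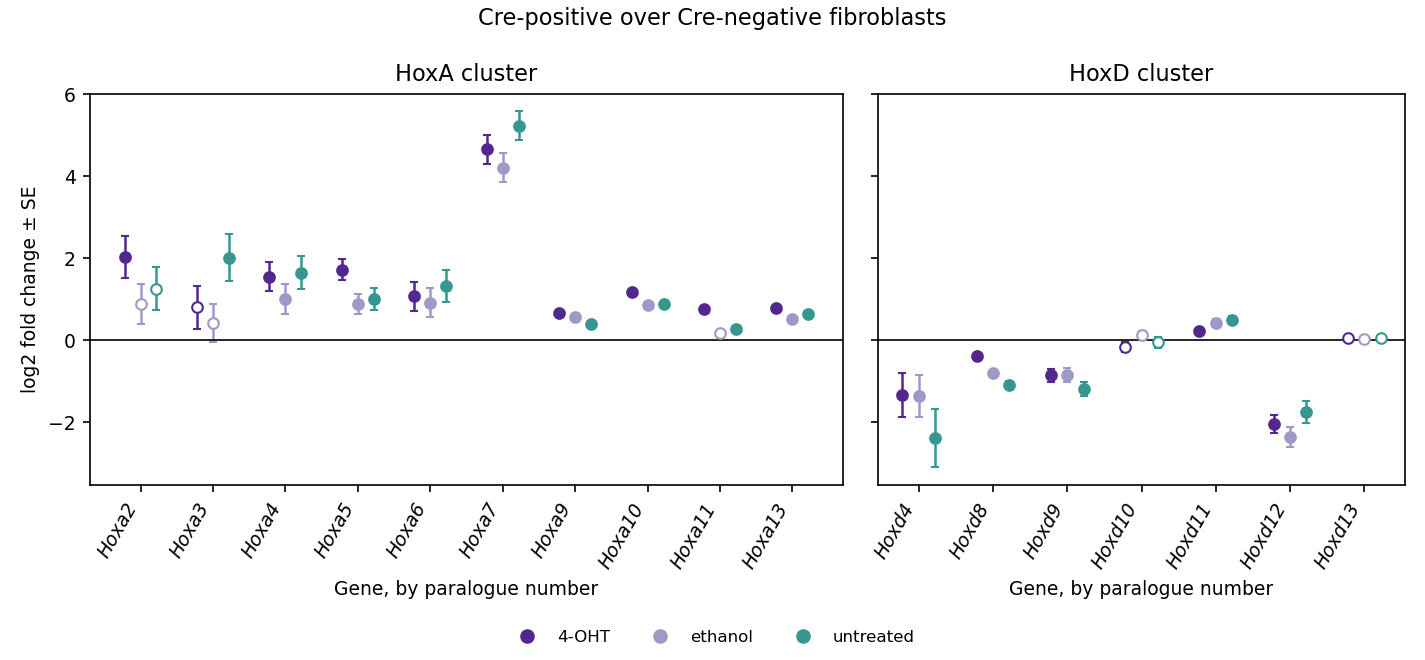
Log2 fold change of Cre-positive over Cre-negative cells with its SE, for 17 of the tested genes (horizontal axis), with 4-OHT, with ethanol and untreated; filled points passed at an adjusted p of 0.05. The 10 HoxA genes shown lie above 0 under each treatment, Hoxd4, Hoxd8, Hoxd9 and Hoxd12 lie below 0, and Hoxd10 and Hoxd13 stay near 0.

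The same comparison between the lines was made in other libraries, those given 4-OHT and those given ethanol. With 4-OHT 11 genes were higher and 4 lower in Cre-positive cells, where 60.7% of all tested genes passed (30.5% higher, 30.2% lower), and with ethanol 9 were higher and 4 lower, where 54.5% passed (26.4% higher, 28.1% lower). The same 4 HoxD genes were lower each time, and Hoxd13 and Hoxd10 did not pass. Among the HoxA genes the calls changed. Hoxa3 passed in untreated cells only, with 0.80 (adjusted p = 0.196) with 4-OHT and 0.42 (adjusted p = 0.47) with ethanol. Hoxa2 passed with 4-OHT only (log2 fold change 2.03, SE 0.518, adjusted p = 0.00188). Hoxd12 had log2 fold changes of -2.04 (SE 0.225) with 4-OHT, -2.37 (SE 0.250) with ethanol and -1.74 (SE 0.267) untreated. For Hoxd8 they were -0.39 (SE 0.0725), -0.81 (SE 0.0765) and -1.08 (SE 0.0812) in that order, and for Hoxa10 1.16 (SE 0.0608), 0.86 (SE 0.0628) and 0.89 (SE 0.0668). Hoxa11 passed with 4-OHT (0.77, SE 0.0717, adjusted p = 5.5e-09) and not with ethanol (0.17, SE 0.0760, adjusted p = 0.0669). Several of the scarce genes rested on single libraries. In the ethanol comparison Hoxa4 (without library 3, 4 or 10), Hoxa5 (10), Hoxa6 (3, 4 or 9) and Hoxd4 (3, 4 or 10) lost their calls, with log2 fold changes then at 0.49 to 1.01 for the HoxA genes and -0.72 to -1.47 for Hoxd4. In the 4-OHT comparison Hoxa6 (without library 6 or 11), Hoxd4 (6 or 12) and Hoxd11 (5 or 11) lost theirs, with log2 fold changes of 0.99 to 1.047 for Hoxa6, -0.74 to -0.84 for Hoxd4 and 0.14 to 0.17 for Hoxd11.

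Summed over the cluster, HoxA RNA was at 215 ± 9.28 CPM in Cre-positive cells with 4-OHT, 168 ± 3.36 CPM with ethanol and 162 ± 1.52 CPM untreated, against 114 ± 3.84, 111 ± 3.35 and 106 ± 1.22 CPM in Cre-negative cells. HoxD RNA was at 240 ± 0.433 CPM in Cre-positive cells with 4-OHT, 237 ± 8.63 CPM with ethanol and 206 ± 4.57 CPM untreated, against 242 ± 5.41, 241 ± 3.19 and 214 ± 0.912 CPM in Cre-negative cells. HoxA sums were thus separated by line under every treatment, while HoxD sums lay close together under each treatment, with Hoxd13 the bulk of them.

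**Figure D3:**
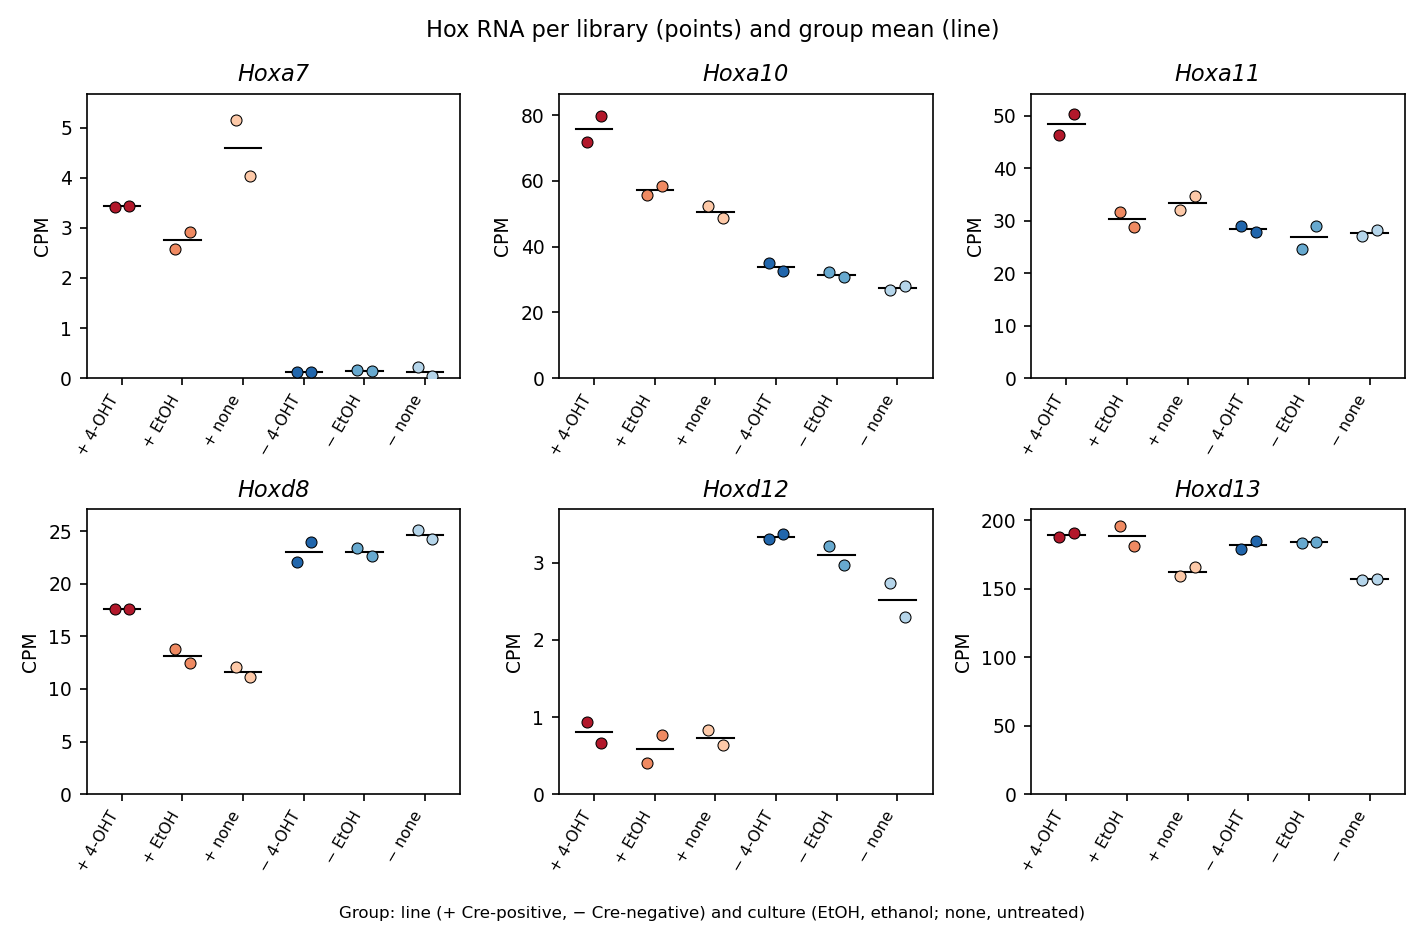
CPM in each library (points) and group mean (line) for Hoxa7, Hoxa10, Hoxa11, Hoxd8, Hoxd12 and Hoxd13, with Cre-positive groups on the left of each panel and Cre-negative groups on the right. Hoxa7 lies at 2.58 CPM or above in Cre-positive libraries and at 0.220 CPM or below in Cre-negative ones, and Hoxa11 is at 46.3 CPM or above only in the Cre-positive 4-OHT libraries.

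Non-coding RNAs of the same clusters also differed between the lines. Of 17 such RNAs listed, 6 were tested, and in untreated cells all 6 passed: the HoxA RNAs Hoxa11os, Hottip, Hotairm1, Hoxaas2 and Hoxaas3 were higher in Cre-positive cells and the HoxD RNA Hoxd3os1 was lower. In the same comparison 49.0% of all tested genes passed (24.4% higher, 24.6% lower). Hoxa11os, the antisense partner of Hoxa11, was at 13.1 ± 0.331 CPM in untreated Cre-positive cells and 8.23 ± 0.481 CPM in untreated Cre-negative cells (log2 fold change 0.66, SE 0.113, adjusted p = 4.14e-05). Hottip, an RNA from the end of HoxA next to Hoxa13, chosen after its values were seen, was at 0.747 and 1.03 CPM, against 0.0441 and 0.108 CPM. Outside the clusters, 5 of 16 tested flanking genes were higher and 4 lower (56.2% called, against 49.0% of all genes). On the HoxA side Hibadh and Skap2 were higher (log2 fold changes 0.43 and 0.38), on the HoxD side Mtx2 was lower (-0.33), on the HoxC side Cbx5, which codes for a heterochromatin protein, was higher (0.32). Evx2, the homeobox gene beyond Hoxd13, chosen likewise, was at 10.4 ± 1.09 CPM in untreated Cre-positive cells and 9.73 ± 0.0161 CPM in untreated Cre-negative cells and did not pass (adjusted p = 0.459).

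Other genes that mark position in the embryo also set the lines apart. Of 32 tested genes of this list, 14 were higher and 13 lower in untreated Cre-positive cells (84.4%, against 49.0% of all genes), and the limb genes were among the most separated. Pitx1, the homeobox gene of the hindlimb, was at 2.44 and 1.97 CPM in untreated Cre-positive libraries, against 37.1 and 40.6 CPM in untreated Cre-negative ones (log2 fold change -4.13, SE 0.116, adjusted p = 1.01e-17). Tbx5 and Tbx4 were chosen after their values were seen. Tbx5, the T-box gene of the forelimb, was at 13.8 and 13.7 CPM in untreated Cre-positive libraries, against 0.176 and 0.108 CPM in untreated Cre-negative ones (log2 fold change 6.58, SE 0.228, adjusted p = 3.74e-16). Tbx4, its hindlimb counterpart, was at 1.73 and 2.16 CPM, against 26.7 and 26.8 CPM (log2 fold change -3.79, SE 0.174, adjusted p = 4.9e-14). Tbx5 was higher and Tbx4 and Pitx1 were lower in Cre-positive cells, and the lines did not overlap for these 3 genes, a description only, since Tbx5 and Tbx4 were picked for their values.

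Tbx15 (39.2 ± 1.92 CPM in untreated Cre-positive cells and 229 ± 1.25 CPM in untreated Cre-negative cells) and Foxd1 (0.959 ± 0.243 and 24.6 ± 0.787 CPM, in the same order of lines) were lower in Cre-positive cells. Prrx1, a homeobox gene of limb bud mesenchyme, was higher, with 443 ± 12.1 CPM in Cre-positive cells and 114 ± 2.98 CPM in Cre-negative cells. Cell type markers differed between the untreated lines too, at counts that stand against 49.0% of all tested genes called (24.4% higher, 24.6% lower). Of 10 tested fibroblast markers 6 were higher and 2 lower in Cre-positive cells (Col3a1 by 2.02 and Col1a2 by 1.43 on the log2 scale among the higher), and of 4 tested neural markers 2 were higher (Sox2 by 1.42, Tubb3 by 1.16) and 1 lower (Map2 at -1.10). Of 5 tested adipocyte and cartilage markers 4 were lower in untreated Cre-positive cells, and the list of 6 summed to 14.1 to 24.7 CPM in Cre-positive libraries against 99.05 to 125.4 CPM in Cre-negative libraries, with Acan at 0 in untreated Cre-positive libraries and Adipoq at 0.0717 CPM or below throughout. The part of these markers in the Hox differences was not tested.

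**Figure D4:**
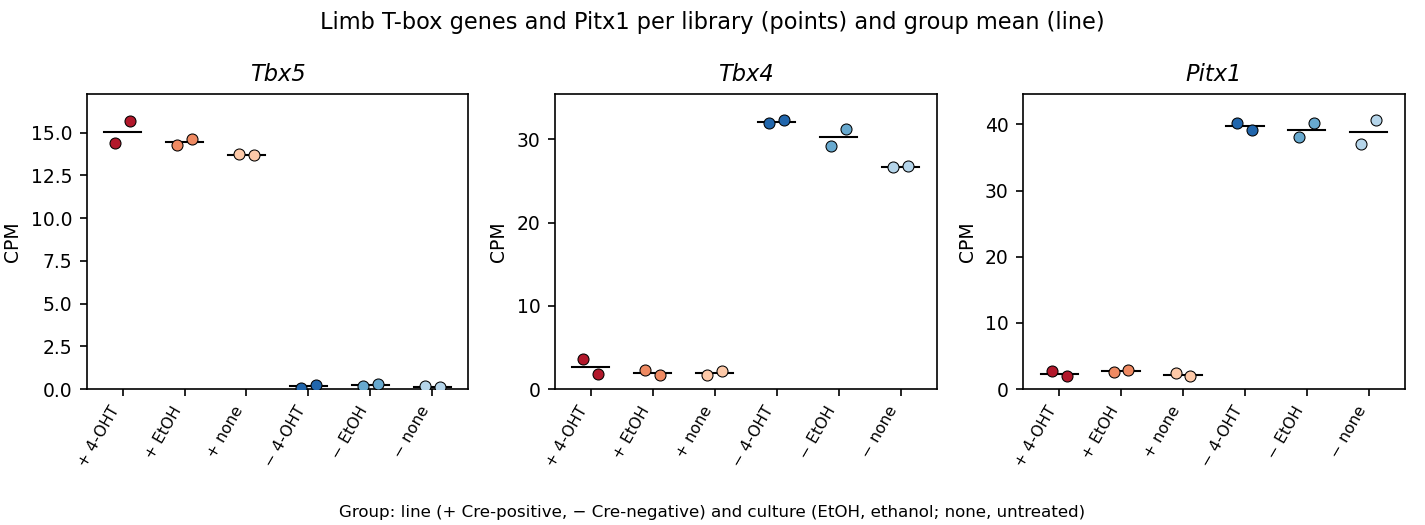
CPM in each library (points) and group mean (line) of Tbx5, Tbx4 and Pitx1, with Cre-positive groups on the left of each panel and Cre-negative groups on the right. Tbx5 is at 13.7 CPM or above only in Cre-positive libraries, while Tbx4 and Pitx1 are at 26.7 CPM or above only in Cre-negative libraries.

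Genes that work with or act on Hox genes were called between the untreated lines at shares to be read against the 49.0% of all genes. Of 9 TALE homeodomain genes, whose proteins bind DNA together with HOX proteins, 5 were higher and 2 lower (77.8%). Pbx3 (31.0 ± 0.755 CPM in Cre-positive cells and 15.0 ± 1.82 CPM in Cre-negative cells), Meis2 (15.5 ± 0.920 and 8.16 ± 0.883 CPM) and Pknox2 (4.34 ± 0.370 and 2.10 ± 0.0253 CPM) were higher, and Meis1 (3.25 ± 0.479 and 7.01 ± 0.237 CPM) was lower. Of 10 tested genes on the list of retinoid and Cdx inputs to Hox genes, 6 were higher and 2 lower (80.0%). They included Crabp2, a carrier of retinoic acid, at 51.9 ± 1.41 CPM in Cre-positive cells and 17.1 ± 0.0793 CPM in Cre-negative cells, and the receptor gene Rarb, at 2.36 ± 0.277 and 0.589 ± 0.334 CPM. The receptor gene Rara was higher too (log2 fold change 0.55), and Cyp26b1, whose enzyme breaks retinoic acid down, was lower (-0.51). Of 30 Polycomb genes 8 were higher (Cbx6 by 0.54, Rnf2 by 0.55, Ezh2 by 0.33 on the log2 scale) and 8 lower (Phf19 at -0.79), 53.3% in all, and of 16 Trithorax and H3K27 demethylase genes 2 were higher and 7 lower (Kdm6a, Wdr5, Mllt3 and Aff4 at -0.20 to -0.24), 56.2% in all. The part of any of these lists in the Hox differences was not tested.

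In Cre-positive cells 4-OHT was followed by higher levels of a few Hox genes, most clearly Hoxa11, Hoxa10 and Hoxd8, and by lower levels of none. Against ethanol 6 of the 18 tested genes rose (33.3%), where 38.3% of all tested genes passed (21.1% higher, 17.2% lower), so the count lies near the background. None fell, either in edgeR, at an unadjusted p of 0.05 or in DESeq2, which gave no adjusted p for 3 of the 18. The median log2 fold change was 0.17 over the 18 genes and 0.03 over all tested genes.

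Hoxa11 was at 46.3 and 50.4 CPM with 4-OHT, against 31.8 and 28.9 CPM with ethanol and 32.1 and 34.6 CPM untreated. Both 4-OHT libraries lay above the other 10 libraries of the study. Over ethanol the log2 fold change was 0.67 (SE 0.0704, adjusted p = 2.19e-07). Exons of Hoxa11 share 800 bases (35.0% of its exon length) with Hoxa11os, which was at 12.6 and 12.2 CPM with 4-OHT and 12.3 and 11.7 CPM with ethanol (log2 fold change 0.05, adjusted p = 0.729), so the antisense RNA, as counted, did not pass.

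Hoxa10 was at 71.8 and 79.8 CPM with 4-OHT, against 55.7 and 58.5 CPM with ethanol (log2 fold change 0.41, SE 0.0568, adjusted p = 9.25e-06), without overlap. Hoxd8, a trunk gene of HoxD, was at 17.6 and 17.5 CPM with 4-OHT, against 13.8 and 12.5 CPM with ethanol (log2 fold change 0.42, SE 0.0776, adjusted p = 0.000211), also without overlap. Its level with 4-OHT was still under every Cre-negative library, which held 22.03 to 25.07 CPM. Hoxa9 (log2 fold change 0.14, adjusted p = 0.0345) and Hoxa13 (0.16, adjusted p = 0.048) passed narrowly, and neither passed in DESeq2, which called 3 genes. Nor did they in edgeR without library 4, 11 or 12 (log2 fold changes of 0.11 to 0.15 for Hoxa9 and 0.09 to 0.17 for Hoxa13). Both also failed in edgeR without the filter on low counts (adjusted p = 0.133 for Hoxa9 and 0.148 for Hoxa13). The same held with only the compared libraries (0.103 and 0.127), and for Hoxa13 with RLE scaling (0.0648). Of 10 alternatives Hoxa9 lost its call in 6 and Hoxa13 in 7. Hoxd13, the most abundant gene, was at 187 and 191 CPM with 4-OHT, against 196 and 181 CPM with ethanol (log2 fold change 0.00, 95% interval -0.0812 to 0.0879).

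In Cre-negative cells 4-OHT was not followed by a change in any of the 18 genes that passed the test, where 5.99% of all tested genes passed (3.33% higher, 2.65% lower). At an unadjusted p of 0.05 Hoxd11 was higher and Hoxa5 lower, and DESeq2 called none, with no adjusted p for 9 of them. Hoxa11 was at 29.0 and 27.9 CPM with 4-OHT, against 24.7 and 29.1 CPM with ethanol, and Hoxd8 at 22.03 and 23.9 CPM, against 23.4 and 22.7 CPM. The ranges overlapped in both genes. They did not for Hoxa10 (35.1 and 32.6 CPM with 4-OHT, against 32.3 and 30.7 CPM with ethanol). For Hoxa13 the 4-OHT libraries lay below those with ethanol (17.7 and 17.2 CPM, against 18.7 and 19.2 CPM).

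The effects of 4-OHT differed between the lines for 4 of the 18 tested Hox genes by the test of the difference. Of all tested genes 28.3% passed (14.5% higher, 13.8% lower), so the count lies near the background. The difference, Cre-positive minus Cre-negative on the log2 scale, was 0.60 for Hoxa11 (SE 0.105, adjusted p = 0.000208), 0.42 for Hoxd8 (SE 0.106, adjusted p = 0.00501), 0.31 for Hoxa10 (SE 0.0879, adjusted p = 0.0125) and 0.28 for Hoxa13 (SE 0.0977, adjusted p = 0.034). Hoxa11 and Hoxd8 passed in every alternative run. Hoxa10 no longer passed without library 6, 9 or 12 (0.23 to 0.26), and Hoxa13 without any of libraries 4, 5, 6, 9, 10, 11 and 12 (0.21 to 0.29).

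**Figure D5:**
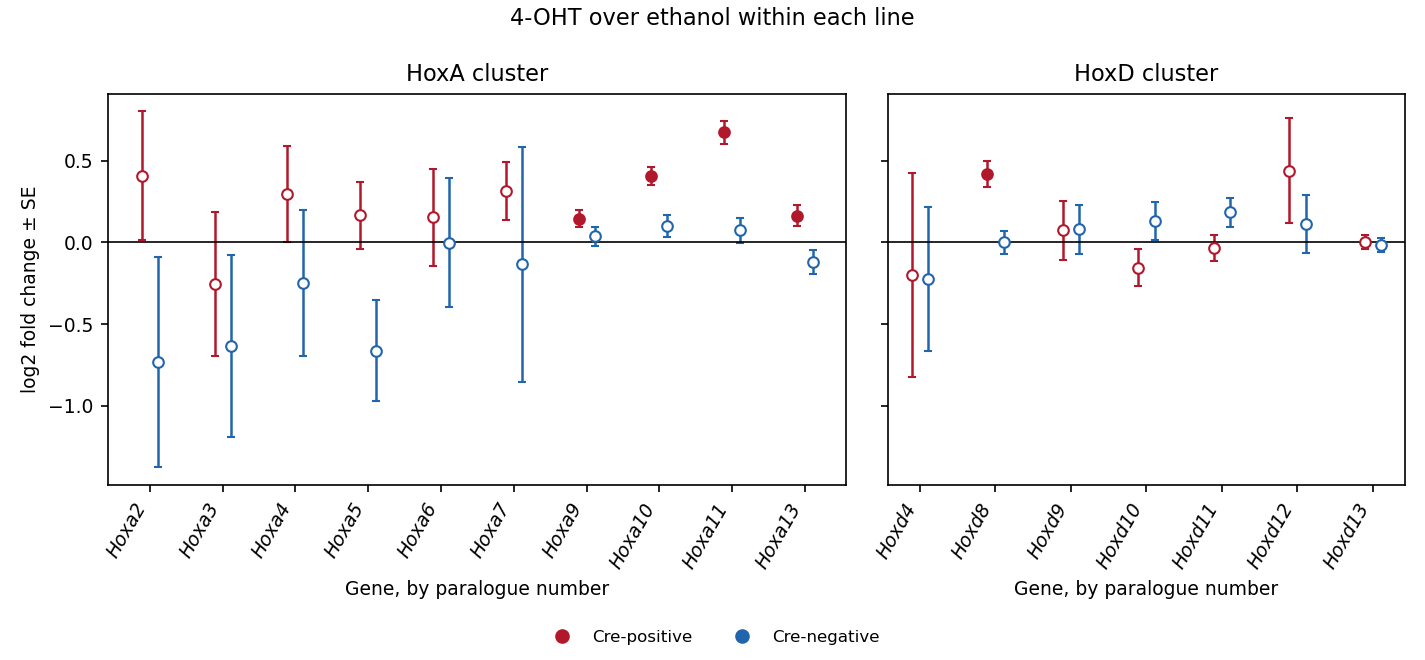
Log2 fold change of 4-OHT over ethanol with its SE for 17 of the tested genes (horizontal axis), in the Cre-positive line and in the Cre-negative line; filled points passed at an adjusted p of 0.05. Hoxa11, Hoxa10 and Hoxd8 are filled and clearly above 0 in Cre-positive cells only, Hoxa9 and Hoxa13 are filled nearer the threshold, and no Cre-negative point is filled.

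Against untreated cells, a comparison that shares its 4-OHT libraries with the one above, 7 of the 18 tested Hox genes passed in Cre-positive cells. With 4-OHT 6 were higher and Hoxa7 was lower. Of all tested genes 39.2% passed (3697 higher and 3204 lower of 17609), so the count of called Hox genes lies near the background. The log2 fold changes were 0.58 for Hoxa10, 0.54 for Hoxa11, 0.59 for Hoxd8, 0.28 for Hoxa13, 0.24 for Hoxa9 and 0.22 for Hoxd13. Hoxa7 was at 3.43 and 3.43 CPM with 4-OHT, against 5.15 and 4.03 CPM untreated (log2 fold change -0.43, adjusted p = 0.0459); without library 7 (-0.23, adjusted p = 0.460), 11 or 12 (both -0.43) it no longer passed.

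Hoxd13 was higher with ethanol than in untreated cells of either line. The labels give no culture time for untreated cells, so ethanol and time or handling in culture cannot be told apart. With ethanol Hoxd13 was at 196 and 181 CPM in Cre-positive cells, against 159 and 166 CPM untreated (log2 fold change 0.22, SE 0.0416, adjusted p = 0.00116). Cre-negative cells held 184 and 184 CPM with ethanol, against 156 and 157 CPM untreated (0.23, SE 0.0415, adjusted p = 0.000291). The groups did not overlap in either line. Beside Hoxd13, Hoxa7 was lower with ethanol in Cre-positive cells (1 of 18 genes higher and 1 lower, against 14.9% of all genes called, 8.11% higher and 6.84% lower), at 2.58 and 2.92 CPM against 5.15 and 4.03 CPM untreated, and without library 7 it did not pass (log2 fold change -0.55, adjusted p = 0.159). In Cre-negative cells Hoxa10 (log2 fold change 0.20, adjusted p = 0.0410) and Hoxa13 (0.23, adjusted p = 0.0277) were higher with ethanol as well (3 of 18 genes higher and none lower, against 24.5% of all genes called, 12.5% higher and 12.0% lower), and neither passed in DESeq2. Hoxa10 did not pass without any 1 of libraries 1, 2, 9 and 10 (0.17 to 0.24), nor Hoxa13 without library 2, 9 or 10 (0.19 to 0.26).

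Among the other lists, 4-OHT in Cre-positive cells changed none of the 6 tested Hox cluster RNAs against ethanol, where 1 was at an unadjusted p under 0.05 and DESeq2 called none, with no adjusted p for 2. All counts of called list members in this comparison stand against 38.3% of all genes called, 21.1% higher and 17.2% lower. Flanking genes rose in 6 and fell in 3 of 16 cases (56.2%), with Smug1, Lnp and Atf7 lower (log2 fold changes -0.53, -0.23 and -0.55). Of 9 TALE genes 4 rose and none fell (44.4%), the largest being Pbx4, at 1.90 ± 0.239 CPM with 4-OHT and 0.945 ± 0.0859 CPM with ethanol, and Pknox2, at 5.68 ± 0.347 and 3.60 ± 0.0829 CPM. Trithorax and H3K27 demethylase genes fell in 10 and rose in 1 of 16 cases (68.8%), with Wdr5 and Ash2l, which code for subunits shared by H3K4 methyltransferase complexes, at -0.41 and -0.36 and the demethylase gene Kdm6b at -0.72 on the log2 scale. Of 30 Polycomb genes 4 were higher (Cbx8 by 0.60) and 9 lower (Phf19 at -0.79, Suz12 at -0.30), 43.3% in all. Of 10 retinoid and Cdx genes 3 rose and 1 fell (40.0%), with Cyp26b1 at 6.09 ± 0.233 CPM with 4-OHT and 3.42 ± 0.0946 CPM with ethanol.

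Positional genes rose in 10 and fell in 1 of 32 cases in Cre-positive cells with 4-OHT (34.4%, against 38.3% of all genes). Prrx2, a homeobox gene of mesenchyme, was at 215 ± 6.20 CPM with 4-OHT and 152 ± 11.4 CPM with ethanol, and Foxc1 at 60.7 ± 1.92 and 46.3 ± 1.67 CPM. The limb genes that separated the lines did not pass: Tbx5 was at 14.4 and 15.7 CPM with 4-OHT, against 14.3 and 14.6 CPM with ethanol, Tbx4 at 3.65 and 1.76 CPM against 2.28 and 1.71 CPM, and Pitx1 at 2.69 and 1.96 CPM against 2.65 and 2.92 CPM. The marker lists gave small counts. Of 10 tested fibroblast markers 3 rose and 2 fell (Fn1 at -0.60 on the log2 scale), of 4 tested neural markers 1 rose and 2 fell (Nes at -0.70), and of 5 tested adipocyte and cartilage markers 3 rose, with the sum of all 6 at 22.25 to 24.7 CPM with 4-OHT and 14.9 to 16.5 CPM with ethanol. Their part in the change of the Hox genes was not tested.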

How the data were processed

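Expected counts, deposited as whole numbers under gene symbols, were made by the authors with cutadapt 1.11, STAR 2.5.2a, RSEM 1.2.30 and edgeR on GRCm38, per the submitters' processing notes. The sources used here do not give the annotation, strand setting or rounding. Libraries were grouped by the labels, and their numbers are those of the titles. Counts were scaled by TMM (factors 0.972 to 1.02) and tested with edgeR 4.0.16 in R 4.3.3 (filterByExpr, minimum count 10, 1 mean per group over 12 libraries, quasi-likelihood F test, 6 residual and 14.6 prior degrees of freedom), with Benjamini-Hochberg adjustment over 17609 genes. The SE is the size of the log2 fold change divided by the square root of F. CPM uses TMM-scaled totals, and CPM per kb the union exon length in GENCODE M21. Alternatives were RLE and unscaled totals, a robust fit, no filter, only the compared libraries, ethanol and untreated cells as 1 reference, DESeq2 1.42.0 and leaving out each library. The fit was tested on simulated data. Hox genes were named by their symbol, with 1 not reported here, and from each other list up to 4 (lines) and 3 (4-OHT) called genes of smallest p with a mean log2 CPM of at least 0. The genes and lists were chosen with earlier results of these data known. Intervals and floors on counts cover counting error only.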

Additional observations from a re-analysis of the deposited data

Results flagged for a closer look

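The effect of 4-OHT over ethanol differed between the lines for 4 Hox genes of 18 by the test of the difference itself in edgeR (22.2%, against 28.3% of all genes). On the log2 scale, Cre-positive minus Cre-negative, Hoxa11 differed by 0.60 (0.67 for Cre-positive and 0.07 for Cre-negative cells), Hoxd8 by 0.42 (0.42 and 0.00), Hoxa10 by 0.31 (0.41 and 0.10) and Hoxa13 by 0.28 (0.16 and -0.12). In Cre-positive cells the 4-OHT and ethanol libraries of Hoxa11, Hoxa10, Hoxd8 and Hoxa13 did not overlap. Those of Hoxa2, Hoxa4, Hoxa7 and Hoxd10, which did not pass, did not overlap either. In Cre-negative cells the libraries of Hoxa10 and Hoxa13 were also without overlap. How often groups of 2 libraries separate in this way over all genes was not counted. Hoxa11 and Hoxd8 passed in all 13 alternatives run, Hoxa10 lost its call in 3 of them and Hoxa13 in 10, DESeq2 included.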

How the results depend on the processing

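No paired analysis was possible because the library numbers in the labels are unique to each library and pair none. No called Hox result changed sign under the alternatives run. DESeq2 called fewer Hox genes: 3 higher with 4-OHT over ethanol in Cre-positive cells (6 in edgeR), 0 lower with 4-OHT over untreated (1), 0 lower with ethanol over untreated in Cre-positive cells (1, with no adjusted p for Hoxa7) and 1 higher with ethanol over untreated in Cre-negative cells (3). Between the untreated lines DESeq2 called 10 higher and 4 lower (11 and 4 in edgeR). With ethanol it called 6 higher and 3 lower (9 and 4), and with 4-OHT 9 higher and 3 lower (11 and 4). Line calls lost in DESeq2 included Hoxa6 in each comparison, Hoxa4 and Hoxd4 with ethanol, and Hoxd4 and Hoxd11 with 4-OHT. RLE scaling, the robust fit and no filter each gave 2 Hox genes higher with ethanol in Cre-positive cells (1). With only the compared libraries, 1648 genes passed for 4-OHT over ethanol in Cre-negative cells (1054). With unscaled totals the log2 ratio of cluster sums between lines was 0.54 for HoxA with ethanol and -0.061 for HoxD with 4-OHT. Leaving out 1 library at a time, 4-OHT over ethanol gave 274 to 636 genes in Cre-negative cells and 3 to 5 Hox genes higher in Cre-positive cells, and the difference of the effects gave 2 to 4 Hox genes higher (4) and 0 to 1 lower (0). Hox genes lower in Cre-positive cells numbered 0 to 1 with 4-OHT over untreated and 0 to 1 with ethanol over untreated, where 1440 to 2485 genes passed (2632). Ethanol over untreated in Cre-negative cells gave 2775 to 3321 genes (4313) and 1 to 2 Hox genes higher (3). Leaving out a library leaves fewer libraries in each fit; the cause of the other shifts was not tested. Genes at a few counts per library are the least precise, and HoxB and HoxC could not be tested at this depth.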
